A study of Drosophila melanogaster with 8 samples.

Results

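The genes described here encode subunits of the proteasome. A gene was included when its FlyBase symbol begins with Prosalpha, Prosbeta, Rpt plus a digit or Rpn plus a digit. Of 15438 gene rows in each of the 4 deposited tables, 47 met this rule, 32 of them canonical subunits and 15 variant subunits, whose symbols carry a further R or T. RNA came from S2 cells, a Drosophila melanogaster line derived from late embryos. The mutant Beaf group (3 libraries) and the wild-type Beaf group (3 libraries) are S2 cells stably transfected with pUWG vectors that carry a neomycin resistance gene and the mutant or wild-type Beaf gene, taken as G418-resistant colonies. The endogenous BEAF-32 gene, whose product is an insulator protein bound near promoters, is not said to be removed from either group. The CTCF knockdown group (1 library) received double-stranded RNA, in the protocol 400 µg for 5 days, against CTCF, another insulator protein. The CTCF control group (1 library) has no further description. The labels do not tie the 3 libraries of a genotype to separate cultures or colonies, so p-values measure only the spread between these samples. Genotype and any other difference between the transfected lines cannot be told apart. A library's number is that of its deposited table.

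The proteasome degrades proteins tagged with ubiquitin. Its 20S core is a barrel of stacked rings, in which alpha subunits form the outer rings that gate entry and beta subunits form the inner rings, with the peptidase sites on Prosbeta1, Prosbeta2 and Prosbeta5. The 19S regulatory particle caps the core. Its base holds a ring of ATPases, Rpt1 to Rpt6, which unfold substrates, with the scaffolds Rpn1 and Rpn2 and the ubiquitin receptors Rpn10 and Rpn13. Its lid holds Rpn11, which removes ubiquitin, among scaffold subunits. The proteasome is needed in every cell, and several T and R variants are known in the fly as testis forms. When proteasome activity drops, flies raise the expression of subunit genes together through the Nrf-type transcription factor Cnc, which Keap1 restrains.

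Values summed over genes ranged from 1544063 to 2122627 per Beaf library as deposited. The knockdown held 9267319 gene reads, and 10963742 were recovered for the control. A member that passed the filter on low values had a median of 44.5 reads in mutant library 1, 99.0 to 127.5 in mutant libraries 2 and 3 and 118.0 to 134.0 in the wild-type libraries (library 3 as deposited), so counting error alone was 14.99% in mutant library 1 and 8.64% to 10.1% in the other Beaf libraries. BEAF-32 stood at 1228, 1613 and 1929 CPM (values scaled to a common total over gene rows) in the mutant libraries and at 25.0, 469 and 676 CPM in the wild-type libraries, so the library labelled wild-type 1 does not show a raised BEAF-32 level. CTCF stood at 11.3 CPM in the knockdown and at 55.4 CPM in the control. Among 10 hemocyte markers, the cell type S2 cells resemble, summed levels were 8060, 11885 and 11544 CPM in the mutant libraries and 1754, 5395 and 5775 CPM in the wild-type libraries. Not every marker followed the sum. Fer1HCH stood at 292, 528 and 500 CPM in the mutant and at 791, 695 and 721 CPM in the wild-type libraries. In mutant library 1, Pxn, NimC1, He and Glt also lay below wild-type libraries 2 and 3, while Hml, Sr-CI, Col4a1, srp and lz lay above them. Mutant library 1 stood apart. It had reads in 12268 genes, where the other Beaf libraries had reads in 9070 to 9874, and in 1183 (29.2%) of the 4055 genes at 0 in the 5 other Beaf libraries. Results are therefore given with and without it.

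Of the 47 members, 32 passed the filter on low values: 30 canonical subunits and the variants Prosalpha1R and Rpt6R. The 15 that did not pass comprise the ATPase genes Rpt1 and Rpt6 and 13 variants. Rpt1 was listed at 0 in all 8 libraries. A count of 0 allows up to 0.324 CPM in the knockdown and 0.274 CPM in the control, and counting error alone is covered by this limit. Rpt6 had 0, 1 and 0 reads in the mutant libraries, 1, 1 and 2 in the wild-type libraries (the last as deposited), 5 in the knockdown and 2 in the control. Since the ATPase ring holds both subunits, their listed values are not read as levels of expression. By BDGP6.54, an annotation that may differ from the authors' own, 0% of the exon bases of Rpt1 and 13.0% of those of Rpt6 overlap exons of another gene.

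Rpt6R, the variant of the ATPase Rpt6, was measured where Rpt6 was nearly not. It stood at 6.81, 43.0 and 37.6 CPM in the mutant libraries and at 49.0, 46.0 and 50.1 CPM in the wild-type libraries. The knockdown held 31.3 CPM and the control 26.0 CPM. Mutant library 1 was far below the 5 other Beaf libraries, and the groups did not overlap. Prosalpha1R, the variant of the outer-ring subunit Prosalpha1, stood near its namesake. Prosalpha1R had 19.2, 70.0 and 51.8 CPM in the mutant libraries, against 75.4, 82.0 and 75.2 CPM in the wild-type libraries. Prosalpha1 had 28.5, 59.4 and 74.5 CPM in the mutant libraries, against 78.7, 76.2 and 70.2 CPM in the wild-type libraries. Both genes have a coding length of 732 bp, and how reads shared by such copies were assigned is not stated, so both values are uncertain. Rpt3R, the variant of Rpt3, was scarce in the Beaf lines, at 3.24 to 4.95 CPM in the mutant and 1.06 to 4.39 CPM in the wild-type libraries, and stood at 19.3 CPM in the knockdown and 16.0 CPM in the control.

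**Figure D1:**
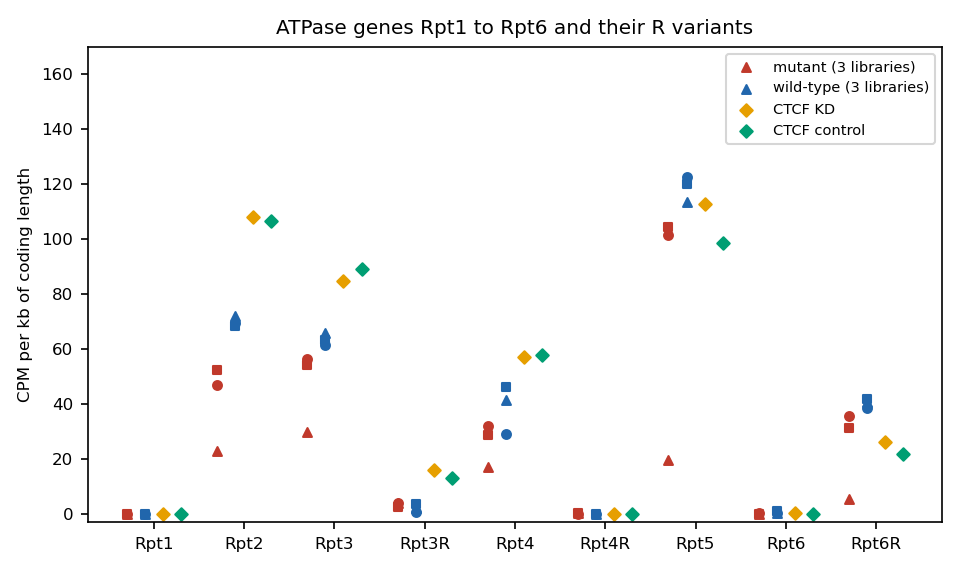
Level of each Rpt ATPase gene and its R variants per library, as CPM per kb of coding length. Triangles, circles and squares are libraries 1, 2 and 3 of the mutant (red) and wild-type (blue) groups, and diamonds are the CTCF knockdown and control. Rpt1 and Rpt6 lie at or near 0 in all 8 libraries, while Rpt6R lies between 31.4 and 41.9 in the Beaf libraries other than mutant library 1.

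The other 12 variants were at the edge of detection. Rpn12R and Rpn13R had no read in any library. Mutant library 1 had 9 reads of Prosbeta4R2, 6 of Prosbeta2R2, 4 of Prosalpha3T, 4 of Prosalpha4T2, 3 of Prosbeta5R2, 2 of Prosalpha6T, 2 of Prosbeta5R1 and 1 each of Prosbeta4R1 and Rpt4R, and none of Prosbeta2R1. In the other Beaf libraries no variant of this kind had more than 2 reads: Prosbeta4R2 had 1 in mutant library 3 and 1 in wild-type library 2, Prosbeta5R2 had 2 and 1 in wild-type libraries 2 and 3, Prosalpha6T had 1 in each of wild-type libraries 1 and 2, and Prosbeta2R1 had 1 in wild-type library 2. Prosbeta4R1 had 1 in mutant library 2 and 2 in wild-type library 3, and Rpt4R had 1 in mutant library 3. The CTCF libraries held none of these 12, apart from 2 reads of Prosbeta2R2 in the control. In 6 variants the 5 other Beaf libraries were at 0, and 4 of these had reads in mutant library 1. As the share of all such genes with reads there was 29.2%, no statement on testis forms is drawn from these few reads. Markers of germline and testis were low in the Beaf lines: the summed level of 8 measured markers was 37.8, 29.2 and 33.0 CPM in the mutant and 7.07, 19.6 and 20.7 CPM in the wild-type libraries. The sum was 150 CPM in the knockdown and 141 CPM in the control, mostly bam (126 and 118 CPM). Of 2 markers tested in libraries 2 and 3, bam rose (log2 fold change 1.08, limma adjusted p = 0.0166) and mia did not pass. Of all genes 9.34% were called higher there. Of these markers sa, fzo and Mst87F were at 0 in all 8 libraries, and their part in the variant reads was not tested.

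Levels were compared between genes as CPM per kb of coding length. In the wild-type libraries the order ran from Rpt4, at 39.1 ± 8.8 CPM per kb, to Prosalpha6, an outer-ring subunit, at 132 ± 6 CPM per kb (SD, n = 3). Rpt6R, next above Rpt4 at 40.4 ± 1.8 CPM per kb, did not differ from it beyond their spread. Just below Prosalpha6 lay the inner-ring subunits Prosbeta7 at 120 ± 5 and Prosbeta5 at 120 ± 17 and the ATPase Rpt5 at 119 ± 5 CPM per kb (SD, n = 3), which lay within 1 SD of each other. The highest member of each subcomplex was Prosalpha6 in the alpha ring, Prosbeta7 in the beta ring, Rpt5 among the base ATPases, Rpn2 (77.0 ± 4.6) among the other base subunits and Rpn6 (94.1 ± 2.0) in the lid. The lowest were Prosalpha5 (78.8 ± 0.9), the peptidase subunit Prosbeta1 (59.7 ± 8.9), Rpt4, Rpn13 (52.1 ± 3.9) and Rpn3 (59.6 ± 6.3). Across the 32 members this order was similar between libraries, with a Spearman rho of 0.89 between mutant libraries 2 and 3, 0.92 between mutant and wild-type library 2 and 0.95 between wild-type libraries 1 and 2. It was 0.44 between mutant libraries 1 and 2. These values are across genes, which are not independent replicates.

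The median SD of members was above that of all genes over the mutant libraries and below it over the wild-type ones. An SD of log2 CPM depends on read number, and genes of matched level were not compared. Counting error, 8.64% to 9.21% for the median member in the wild-type libraries, is part of this spread. The median SD of a member's log2 CPM was 0.56 over the 3 mutant libraries, against 0.35 over all 6564 genes tested, and 0.09 over mutant libraries 2 and 3, against 0.11 for all genes. Over the 3 wild-type libraries it was 0.09 for members, against 0.17 for all genes, although wild-type library 1 departed from the others in BEAF-32 and the hemocyte markers.

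The comparison of mutant with wild-type Beaf lines follows. Proteasome subunit transcripts took a smaller share of gene values in every mutant library than in every wild-type library. The summed share of the 47 members was 0.115%, 0.236% and 0.227% in the mutant libraries and 0.287%, 0.273% and 0.276% in the wild-type libraries. The mean was 0.193% ± 0.067 in mutant and 0.279% ± 0.008 in wild-type cells (SD, n = 3 each). Mutant library 1 was far the lowest, mutant libraries 2 and 3 lay between it and the wild-type libraries, and the groups did not overlap. In bulk samples fewer cells of a type and less RNA per cell cannot be told apart.

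**Figure D2:**
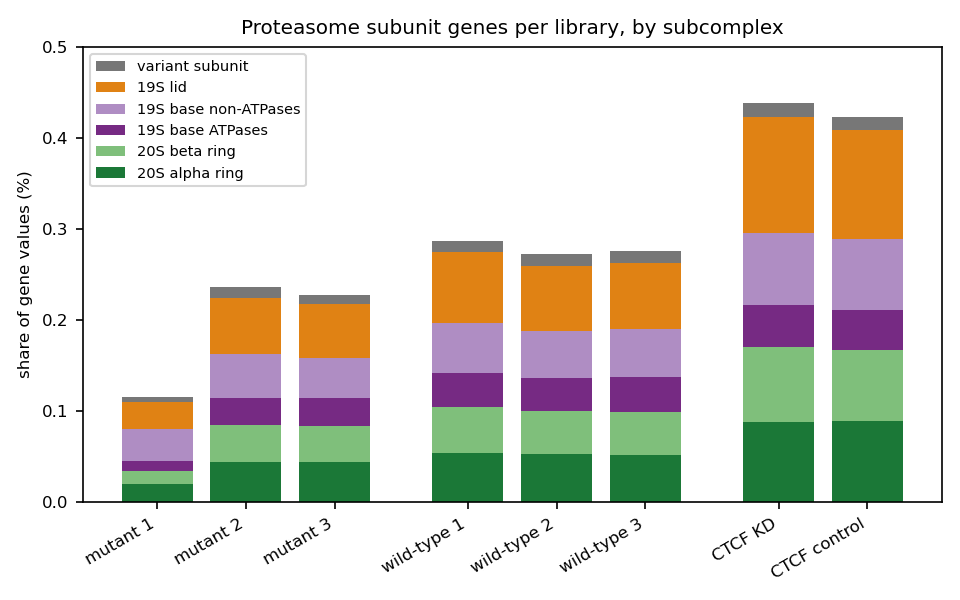
Share of gene values (%) taken by proteasome subunit genes in each of the 8 libraries, stacked by subcomplex. The mutant libraries sit at 0.115%, 0.236% and 0.227%, all under the wild-type libraries at 0.273% to 0.287%, and the CTCF knockdown and control are close to each other at 0.438% and 0.423%.

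All 32 members that passed the filter had a log2 fold change below 0 with the 6 libraries, where 51.9% of all genes did, and their median was −0.59, against −0.02 over all 6564 genes. None passed the threshold. Limma-trend gave 0 of 32 members an adjusted p under 0.05 (0% of all genes), edgeR's quasi-likelihood test and limma-voom also gave 0 members (0% of all genes), DESeq2 gave 0 members (3.49% of all genes), and limma-trend gave 7 an unadjusted p under 0.05, which is 21.9% of them where 7.3% of all genes were lower at that level. The members' limma adjusted p ranged from 0.216 for Rpt2 to 0.476 for Rpn13. In 23 members (71.9%) every mutant library lay below every wild-type library, as in 18.4% of all genes. The members share their libraries and do not count as independent. Without mutant library 1 the median was −0.27, and limma-trend called Prosalpha6, Prosbeta4 and Rpt2 lower, 3 of 32 members, where 2.75% of all genes were called lower.

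**Figure D3:**
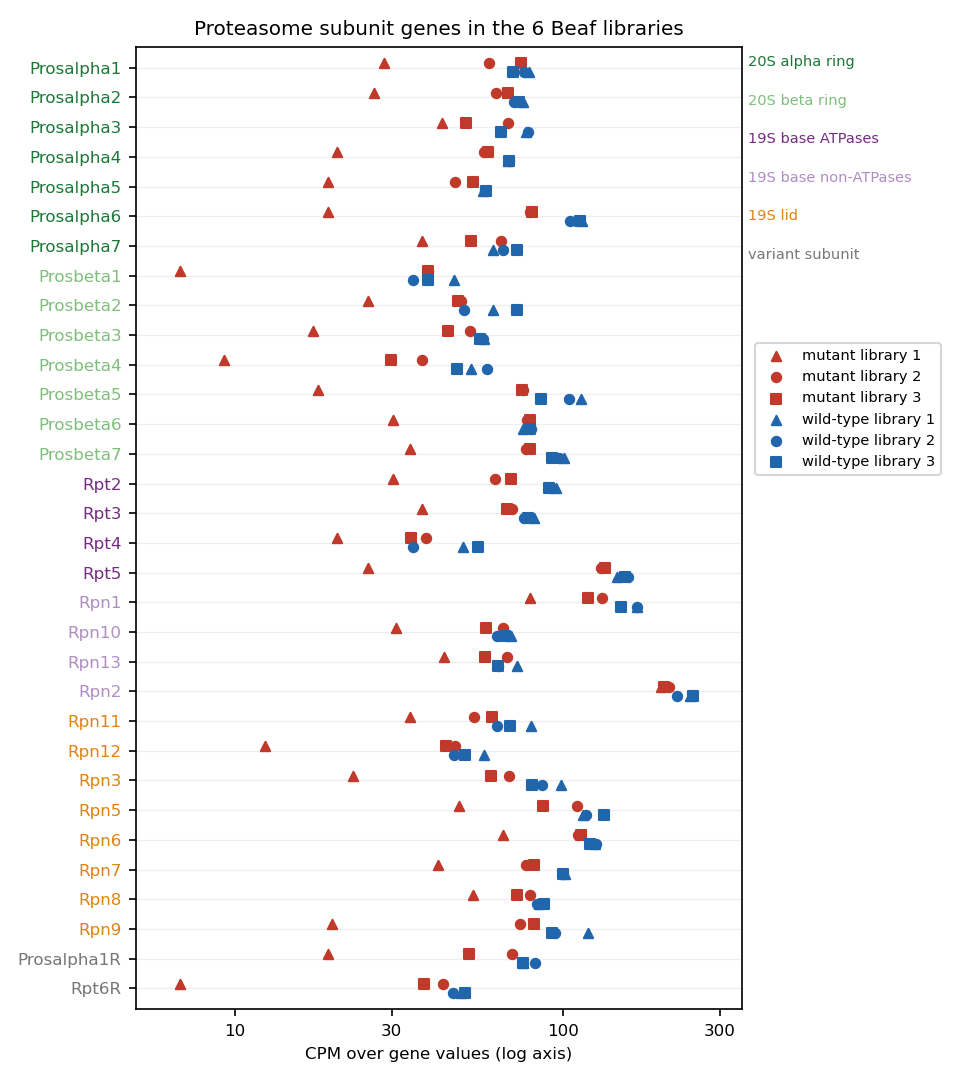
CPM (log axis) of the 32 members that passed the filter in the 3 mutant (red, upper marks) and 3 wild-type (blue, lower marks) libraries, with gene names coloured by subcomplex. Mutant library 1 (red triangles) lies left of all wild-type libraries in all 32 members, and all 3 mutant libraries do so in 23.

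With libraries 2 and 3 of each genotype, subunits of both the core and the cap fell by a modest amount in the mutant, with 7 of the 32 members past limma's threshold, and none rose. This is 21.9% of the members, where 5.42% of all 6619 genes tested were called lower and 9.34% higher. Log2 fold changes were below 0 in 31 of 32 members, as in 51.4% of all genes, with medians of −0.24 for members and −0.01 for all genes, and in 24 members (75.0%) both mutant libraries lay below both wild-type libraries, as in 26.8% of all genes. Those that fell are Prosalpha6, Prosbeta4, Rpt2, Rpn1, Rpn3, Rpn5 and Rpn7, so each canonical subcomplex has at least 1 among them. These 4 libraries were chosen with earlier results known, as replicates that resemble each other, so the p-values rest on a narrowed spread. EdgeR called 6 members lower (6.19% of all genes) and limma-voom 4 (5.67%). DESeq2 called 0 members in them, where it called 0.257% of all genes lower, and gave these 7 genes adjusted p-values from 0.357 to 0.6996. Hemocyte markers differed in these libraries too: 8 of 9 tested rose and 1 fell, with summed levels of 11544 to 11885 CPM in the mutant and 5395 to 5775 CPM in the wild-type libraries, and their part in the members' values was not tested.

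In the alpha ring 1 of 7 subunits fell. Prosalpha6 had 19.2, 79.0 and 80.3 CPM in the mutant libraries, against 114, 105 and 112 CPM in the wild-type libraries. No mutant library reached a wild-type one. It fell in libraries 2 and 3 (log2 fold change −0.44, SE 0.11, limma adjusted p = 0.00795). Each of the other 6 alpha subunits had a log2 fold change below 0 that did not pass, from −0.14 for Prosalpha1 to −0.28 for Prosalpha3. Prosalpha4 averaged 45.5 ± 21.8 CPM in mutant and 68.1 ± 0.3 CPM in wild-type cells, and Prosalpha5 39.7 ± 18 CPM in mutant and 57.7 ± 0.6 CPM in wild-type cells (SD, n = 3 each), so only the wild-type values were tightly grouped. Prosalpha5, the lowest alpha subunit per coding length, had 19.2, 46.7 and 53.1 CPM in the mutant libraries and 57.0, 57.7 and 58.3 CPM in the wild-type libraries.

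In the beta ring 1 of 7 subunits fell. Prosbeta4, a ring subunit without a peptidase site, had 9.28, 37.1 and 29.8 CPM in the mutant libraries and 52.3, 58.7 and 47.6 CPM in the wild-type libraries. It had the lowest log2 fold change of the members in libraries 2 and 3 (−0.65, SE 0.17, limma adjusted p = 0.0138), and the groups did not overlap. Of the peptidase subunits, Prosbeta5, which carries the chymotrypsin-like site, had 17.9, 75.3 and 75.1 CPM in the mutant libraries, against 114, 104 and 85.9 CPM in the wild-type libraries. Its groups did not overlap, but its log2 fold change of −0.33 did not pass (limma adjusted p = 0.0750). Prosbeta1, which carries the caspase-like site, had 6.81, 38.7 and 38.9 CPM in the mutant libraries and 46.6, 34.9 and 38.9 CPM in the wild-type libraries. Libraries 2 and 3 of the 2 genotypes overlapped there, and Prosbeta1 was the 1 member with a log2 fold change above 0 in them (0.07, SE 0.17). Prosbeta2, which carries the trypsin-like site, did not pass (log2 fold change −0.31, limma adjusted p = 0.224). Prosbeta7, the highest beta subunit per coding length, had 34.0, 76.9 and 79.0 CPM in the mutant libraries and 100.3, 96.8 and 92.8 CPM in the wild-type libraries, again without overlap or a pass (log2 fold change −0.28, limma adjusted p = 0.0994).

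Among the base ATPases 1 of 4 measured subunits fell. Rpt2, whose yeast counterpart helps open the core's gate, had 30.3, 62.0 and 69.3 CPM in the mutant libraries and 95.2, 91.5 and 90.2 CPM in the wild-type libraries. The wild-type libraries were almost level and the mutant ones were all lower. It fell in libraries 2 and 3 (log2 fold change −0.47, SE 0.12, limma adjusted p = 0.0108). Rpt5 had 25.4, 130 and 134 CPM in the mutant libraries, against 146, 158 and 154 CPM in the wild-type libraries, and did not pass (log2 fold change −0.24, limma adjusted p = 0.0858). Rpt3 and Rpt4 did not pass either, with log2 fold changes of −0.17 and −0.27. Of the 4, Rpt4 varied most among wild-type libraries. It stood at 20.4, 38.2 and 34.3 CPM in the mutant and 49.5, 34.9 and 55.2 CPM in the wild-type libraries, and its groups overlapped. Among the other base subunits the scaffold Rpn1 fell. Rpn1 had 79.2, 132 and 119 CPM in the mutant libraries and 168, 168 and 150 CPM in the wild-type libraries, without overlap (log2 fold change in libraries 2 and 3 −0.34, SE 0.10, limma adjusted p = 0.0222). Its partner scaffold Rpn2 had 198, 211 and 203 CPM in the mutant libraries and 243, 222 and 248 CPM in the wild-type libraries, and was the member with the smallest deficit in mutant library 1. The ubiquitin receptors Rpn10 and Rpn13 had log2 fold changes of −0.06 and −0.03, within their SEs of 0.13 each. Rpn13 had 43.3, 67.3 and 57.6 CPM in the mutant and 72.1, 63.5 and 63.3 CPM in the wild-type libraries, so its groups overlapped.

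The lid held 3 of the 7 genes that fell, from 8 subunits. Rpn3 had 22.9, 68.4 and 60.2 CPM in the mutant libraries, against 98.5, 86.2 and 80.2 CPM in the wild-type libraries. Rpn5 had 48.3, 110 and 86.8 CPM in the mutant libraries, against 115, 117 and 133 CPM in the wild-type libraries. Rpn7 had 41.5, 76.9 and 81.6 CPM in the mutant libraries, and each wild-type library held 99.6 to 101 CPM. These 3 scaffold subunits did not overlap between genotypes and lay just under the threshold, with log2 fold changes of −0.37, −0.35 and −0.33, SEs of 0.12, 0.11 and 0.11 and limma adjusted p-values of 0.0488, 0.0443 and 0.0465. Limma-voom did not call them (adjusted p = 0.0693, 0.0575 and 0.0606), and neither did limma-trend without a scaling factor. Rpn11, the deubiquitinase of the lid, had 34.0, 53.6 and 60.9 CPM in the mutant libraries and 79.6, 63 and 68.9 CPM in the wild-type libraries, and did not pass (log2 fold change −0.21, limma adjusted p = 0.345). Rpn6, the highest lid subunit per coding length, had 65.6, 111 and 113 CPM in the mutant and 125, 126 and 121 CPM in the wild-type libraries, without overlap, and did not pass (log2 fold change −0.14, limma adjusted p = 0.382).

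Neither of the 2 variants tested passed in libraries 2 and 3. The log2 fold change was −0.38 for Prosalpha1R (SE 0.14, limma adjusted p = 0.0787) and −0.25 for Rpt6R (SE 0.16, limma adjusted p = 0.317), and in both the mutant libraries lay below the wild-type ones.

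Of the 7 genes, Prosalpha6 was called in 11 of 12 other settings tried on libraries 2 and 3, Rpt2 in 10, Prosbeta4 and Rpn1 in 9, Rpn5 in 7 and Rpn3 and Rpn7 in 5. The count of members that fell was 7, 5, 7 and 2 when mutant library 2, wild-type library 2, wild-type library 3 or mutant library 3 was left out, so without mutant library 3 only Prosalpha6 and Rpt2 passed. Prosalpha6 passed without any 1 of the 4, while Rpt2 did not pass without mutant library 2 (log2 fold change −0.38). Prosbeta4 (−0.49), Rpn1 (−0.24) and Rpn3 (−0.30) did not pass without wild-type library 2, Rpn5 (−0.28) did not pass without wild-type library 3, and Rpn7 passed in none of these 4 fits. The log2 fold change of Rpn5 was −0.51 without mutant library 2 and −0.19 without mutant library 3. The counts of members that fell in these 4 fits cover all members tested, and members other than these 7 genes entered them.

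**Figure D4:**
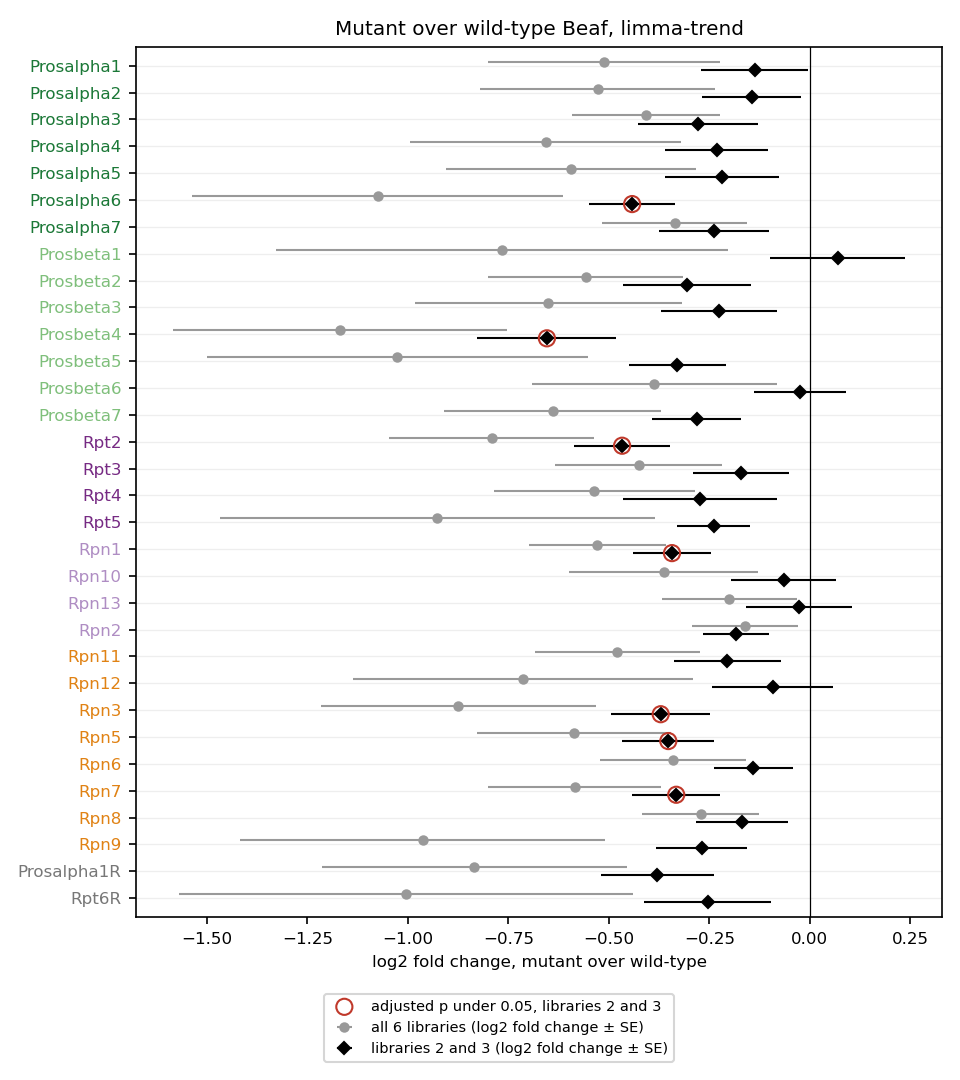
Log2 fold change of mutant over wild-type (± SE) for each of the 32 members with all 6 libraries (grey circles) and with libraries 2 and 3 of each genotype (black diamonds), gene names coloured from green (core rings) to purple (base), orange (lid) and grey (variants). Red rings mark the 7 genes past limma's threshold in libraries 2 and 3, and every member except Prosbeta1 lies below 0 in both fits.

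In mutant library 1 the deficit was larger and uneven. It lay below all 3 wild-type libraries in all 32 members, as in 51.0% of all genes tested, and at or under 50% of the wild-type mean in 26 members (81.3%), as in 22.8% of all genes. The median member stood at 37.2% of its wild-type mean, where the median gene stood at 84.8%. Rpt6R (14.1%), Rpt5 (16.6%), Prosbeta1 (17.0%), Prosalpha6 (17.4%), Prosbeta4 (17.6%) and Prosbeta5 (17.7%) were lowest relative to wild type, and Rpn2 (83.3%) and Rpn13 (65.3%) were least reduced. By subcomplex the median was 36.4% in the alpha ring, 30.5% in the beta ring, 38.4% in the base ATPases, 57.1% in the other base subunits and 40.5% in the lid. Coding length moved with this value. Members with a coding length under 1000 bp had a median of 33.3% (17 genes) and longer members 43.9% (15 genes), and over all protein-coding genes tested the medians were 59.0% (1758 genes) and 96.3% (4318 genes). Summed markers of other cell types were higher in mutant library 1 too. The sum of 5 neuronal markers was 246 CPM, against 57.7 to 70.6 CPM in the other Beaf libraries, with elav at 0 throughout. For 4 epithelial markers it was 735 CPM, against 446 to 532 CPM. Of these, cora was not raised there, at 408 CPM against 353 to 445 CPM. crb, at 171 CPM, was also higher in mutant libraries 2 and 3 (61.5 and 60.2 CPM) than in the wild-type libraries (7.54 to 29.5 CPM), and so was sdt. Summed muscle markers were 221 to 267 CPM in the mutant and 88.1 to 143 CPM in the wild-type libraries. Most of this sum was Mef2, at 165, 148 and 166 CPM in the mutant and 78.7, 108 and 112 CPM in the wild-type libraries. Mef2 was thus not highest in mutant library 1, whereas bt, Mlc2 and up were highest there among the Beaf libraries. The parts of length and of these markers in the members' values were not tested. As 1 library, mutant library 1 allows no test of its own.

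The second comparison asked how expression differed after depletion of CTCF. No proteasome subunit gene moved past 1.5-fold, the size fixed in place of a test because each group is 1 library. Of 33 members with at least 5 CPM in either library, 0 passed, where 3.05% of 6754 genes did. Ratios of knockdown to control ran from 0.845 for Prosalpha2 to 1.20 for Rpt6R. The ring subunit Prosalpha2 had 92.7 CPM in the knockdown and 110 CPM in the control, and Prosbeta3 had 121 CPM in the knockdown and 104 CPM in the control, a ratio of 1.17. Prosalpha6 had 174 CPM in the knockdown and 173 CPM in the control, and Rpt2 had 142 CPM in the knockdown and 141 CPM in the control. The median log2 ratio was 0.05 for members and 0.05 for all 6754 genes, and 22 of 33 members lay above 1 (66.7%), as did 61.5% of all genes. The sum over members took 0.438% of gene reads in the knockdown (95% exact binomial interval 0.434% to 0.442%) and 0.423% in the control (0.419% to 0.427%). These intervals cover counting error only, and a difference between single libraries has no replicate check.

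**Figure D5:**
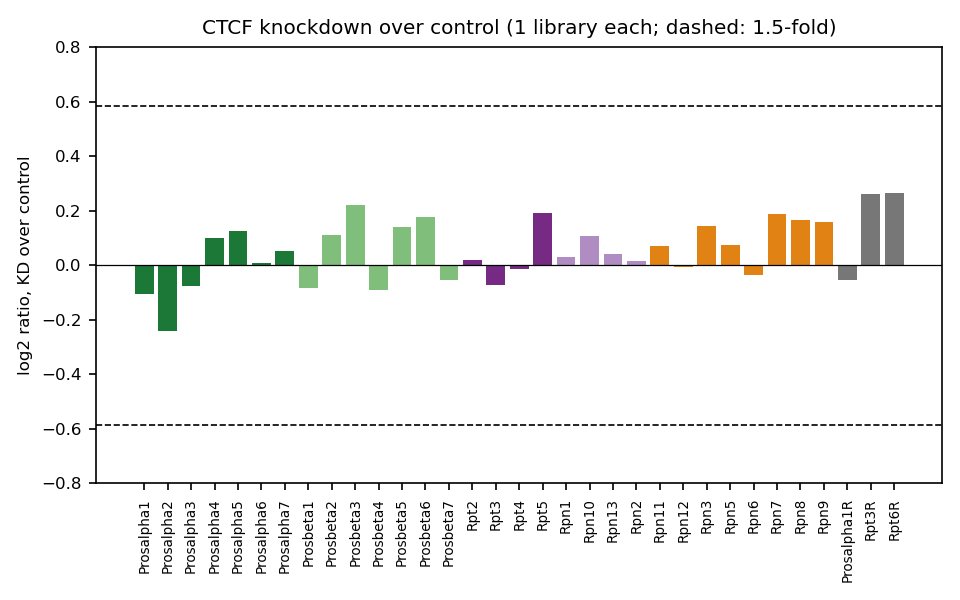
Log2 ratio of CTCF knockdown over control, from CPM plus 0.5, for the 33 members with at least 5 CPM in either library, coloured by subcomplex as in the plot of shares. Dashed lines mark 1.5-fold, and all bars lie between the ratios 0.845 and 1.20.

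Levels in the Beaf lines and in the CTCF libraries come from separate tables and are set side by side without a test. Wild-type mean CPM over control CPM had a median of 0.665 in members and 0.645 in all genes with at least 5 CPM in the control. The median gene was thus also lower in the wild-type Beaf lines by CPM over all gene rows, and a low ratio is not particular to members. These ratios depend on the rows that CPM is taken over. Leaving out IDs without a FlyBase symbol raised the members' share more in wild-type Beaf cells than in the control. Ratios of members ran down to 0.43 for the lid subunit Rpn12. With CPM over all gene rows, Rpt5 and Rpt6R lay above 1, with ratios of 1.20 and 1.86. Rpt5 averaged 153 ± 6 CPM in wild-type Beaf libraries (SD, n = 3) and stood at 127 CPM in the control, and Rpt6R averaged 48.4 ± 2.1 CPM (SD, n = 3) and stood at 26.0 CPM in the control. The 2 sets of libraries also differ in reads outside annotated features, 85.6% to 94.0% of all reads in the Beaf lines, 6.93% in the knockdown and 8.05% in the control.

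Other genes of the pathway were followed as lists chosen by role. Of 8 tested partners of the proteasome, 1 fell in libraries 2 and 3 and 0 rose, where 5.42% of all genes were called lower and 9.34% higher, and the median log2 fold change was −0.25, against −0.01 for all genes. The one that fell was Usp14, a deubiquitinase bound to the 19S particle. Usp14 had 32.2, 50.4 and 56.3 CPM in the mutant libraries and 58.9, 70.9 and 74.0 CPM in the wild-type libraries, without overlap (log2 fold change −0.44, SE 0.13, limma adjusted p = 0.0286). Pomp, the maturation factor of the core, had 10.5, 38.7 and 40.2 CPM in the mutant libraries and 49.0, 47.6 and 63.3 CPM in the wild-type libraries and did not pass (log2 fold change −0.47, limma adjusted p = 0.0564). Neither did the activator REG (−0.30) or the regulator PI31 (−0.39). ntc, which works with PI31, was at 0 in all 8 libraries.

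Of 11 tested genes for ubiquitin supply, shuttling and substrate extraction, 2 fell and 0 rose, beside the same shares of all genes (5.42% lower, 9.34% higher), with a median of −0.21. Uba1, the enzyme that activates ubiquitin, had 269, 505 and 538 CPM in the mutant libraries and 660, 645 and 636 CPM in the wild-type libraries, without overlap (log2 fold change −0.30, SE 0.07, limma adjusted p = 0.00479). Ufd1, a cofactor of the segregase that extracts substrates, had 13.0, 15.9 and 23.3 CPM in the mutant libraries and 33.9, 36.5 and 30.7 CPM in the wild-type libraries, also without overlap (log2 fold change −0.76, SE 0.23, limma adjusted p = 0.0276). The polyubiquitin gene Ubi-p63E was level, at 803, 818 and 843 CPM in the mutant libraries and 830, 805 and 808 CPM in the wild-type libraries, with a log2 fold change of 0.04 ± 0.06 (SE). The shuttle Rad23 (−0.28) did not pass, and no gene of either list passed with all 6 libraries.

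Of 3 regulators tested in libraries 2 and 3, 1 rose and 0 fell, where 9.34% of all genes were called higher and 5.42% lower. The one that rose was cnc. It had 255, 258 and 289 CPM in the mutant libraries and 122, 177 and 169 CPM in the wild-type libraries, which gave a log2 fold change of 0.65 (SE 0.09, limma adjusted p = 2.36e-05). Every mutant library lay above every wild-type library. The share of all genes with this upward order is not given here, so the order is not read as unusual for cnc or Keap1. Keap1 had 24.8, 18.6 and 20.7 CPM in the mutant libraries and 8.01, 12.7 and 11.3 CPM in the wild-type libraries, again without overlap, and did not pass (log2 fold change 0.66, limma adjusted p = 0.105). maf-S, a partner of Cnc, had a log2 fold change of −0.37 that did not pass. With all 6 libraries the log2 fold change of cnc was 0.85 and its limma adjusted p was 0.214. In the CTCF comparison no gene of these 3 lists passed 1.5-fold.

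Because BEAF-32 is known to bind between closely spaced genes that are transcribed away from each other, the neighbours of the members were looked up in BDGP6.54. Of the 32 members that passed the filter, 19 (59.4%) start within 500 bp of the start of a protein-coding gene on the other strand, as do 41.0% of 6076 protein-coding genes that passed. Among these 19 members 6 fell in libraries 2 and 3, with a median log2 fold change of −0.27, and among the 13 others 1 fell, with a median of −0.21. Of all genes 5.42% were called lower in libraries 2 and 3. The shares among all genes with and without such a neighbour are not given. The difference between these 2 sets of members was not tested, and no link to such neighbours is drawn from it. Of the partner genes 17 were tested, 1 fell and 0 rose, which is near the 5.42% of all genes called lower, and their median log2 fold change was −0.07. The one that fell was RanBP3, which starts 42 bp from Rpt5 and had 26.0, 77.4 and 64.1 CPM in the mutant libraries and 117, 96.8 and 87.1 CPM in the wild-type libraries (log2 fold change −0.38, limma adjusted p = 0.0444). Npc1a, 135 bp from Prosalpha6, and CG13599, 81 bp from Rpt2, did not pass. By chromosome the 3 members on the X had a median log2 fold change of −0.23 and the 29 autosomal members −0.24.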

How the data were processed

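Per the submitters' processing notes CASAVA 1.8, BWA and HTSeq were used. The build, annotation and strand setting used for counting are not known from these sources. The authors deposited whole-number read counts for mutant and knockdown libraries. The deposited wild-type and control columns were treated as a signal. In wild-type libraries 1 and 2 and in the control the values show reads times 1 factor per column, rounded. Division by 1.234, 1.237 and 1.297 gave whole reads for 99.99% and 99.99% of positive values in wild-type libraries 1 and 2 and 99.8% in the control (81.0%, 80.8% and 77.1% by chance), a value being whole when a whole number times the factor rounds to it. For wild-type library 3 no factor could be read from the values, and it was used as deposited in every fit. The search relied on gaps between values, which a factor at or below 1 does not leave. Its total over all rows, 32297763, was nearly equal to that of mutant library 3, 32297309. Columns of the other tables also had nearly equal totals within a table, so library 3 may be rescaled too. The 5 closing rows of each table, which name no gene, were dropped. Reads outside features, held in 1 of them, made up 85.6%, 87.4% and 87.4% of the mutant libraries and 94.0%, 91.7% and 91.3% of the wild-type libraries. They were 6.93% of the knockdown and 8.05% of the control. Reads not aligned were 10.4%, 7.62% and 7.61% in the mutant libraries and 0.79%, 3.32% and 3.55% in the wild-type libraries. They were 45.1% in the knockdown and 18.4% in the control. The part of these differences in the comparisons was not tested. CPM were computed over gene rows.

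Limma-trend (limma 3.58.1, R 4.3.3) was fitted over all genes that passed filterByExpr, with TMM factors and a prior count of 2. Two-sided p-values were adjusted with the Benjamini-Hochberg method, at a threshold of 0.05. EdgeR 4.0.16, DESeq2 1.42.0 and limma-voom were alternatives on recovered reads, with the deposited signal for wild-type library 3, which is 1 of 3 wild-type libraries and 1 of the 2 in the fits of libraries 2 and 3. Summaries used Python 3.11.15 and pandas 2.3.3. The pipeline was tested on simulated data, with changes larger than those of any member and without a library that stands apart. That test therefore does not bear on the calls given here. The CTCF comparison used CPM plus 0.5. Of 15438 IDs 14606 matched a symbol, and coding lengths came from BDGP6.54 (longest coding sequence), in place of the protein table planned. Promoter motifs and protein identities were not analysed here. Every member was accounted for, and full values were printed for members past a threshold, variants with reads, the extremes per coding length and, chosen after their values were seen, some others with known roles. Members, lists and tests were chosen with earlier results of these data known. Deviations of same-numbered libraries from their group means had r = −0.16, −0.12 and −0.08 across genotypes. Pairs of unlike number ran from −0.12 to 0.14. With 3 libraries per group, 1 that stands apart forces the others to the opposite sign. These values therefore cannot decide whether the numbers pair samples, and the main fits treat the libraries as unpaired.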

Additional observations from a re-analysis of the deposited data

How the results depend on the processing

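With all 6 libraries 0 members passed under every other scaling, filter, prior count and tool and with a replicate block on the table of origin, and the median log2 fold change of members ran from −0.64 (no scaling factor, or no filter) to −0.54 (edgeR and DESeq2). Leaving out 1 library gave counts from 0 to 3 and medians from −0.75 to −0.27. With libraries 2 and 3 the count was 7 and the median −0.24. There the log2 fold change of Prosbeta1 reversed, to 0.0691. Among 512 values of single members under 16 alternatives, 501 kept their direction and side of the threshold. In libraries 2 and 3 the count of 7 became 4 without a scaling factor, 4 with limma-voom, 0 with DESeq2, 6 with edgeR, and 2 to 7 when 1 library was left out, where the lone library of a genotype is assumed to vary like the others; with the replicate block it was 9, which adds Prosalpha1R and Prosbeta5. The cause was not tested. These fits were added after seeing the data. In the CTCF comparison 0 members passed 1.5-fold in every setting, and with TMM factors the median log2 ratio was −0.01, against 0.05 without them. With IDs lacking a FlyBase symbol left out, the members' share was 0.273% in mutant cells, 0.409% in wild-type cells, 0.489% in the knockdown and 0.473% in the control. Counting error per member, 8.64% to 14.99% in the Beaf libraries at the median, limits what single libraries can show.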
